A study of Mus musculus with 20 samples.

Results

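The proteasome genes of mouse bone marrow progenitors are described here: the subunits of the proteasome and the chaperones that assemble it. They were taken as every gene whose symbol begins with Psm, a letter from a to g and a digit. Of 22180 genes with a probe set of their own on the array, 49 matched, and each gene is represented by its probe set of highest mean over the 20 arrays. Psmc3ip, a factor of meiotic recombination, and Psme3ip1, a protein that binds the Psme3 activator, match the spelling but are not subunits, which leaves 47 proteasome genes. All 47 were among the 16638 genes tested.

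RNA was measured on single-channel whole-transcript arrays in 6 groups of samples from female mice on a C57BL/6 background. The groups were CreER-Rptor-flox/flox and WT common myeloid progenitors (CMP, 3 arrays each), CreER-Rptor-flox/flox and WT granulocyte-macrophage progenitors (GMP, 3 arrays each), and CreER-Rptor-flox/flox and WT lineage-negative (Lin-) marrow cells kept for 12 h in vitro with M-CSF at 10 ng/ml (4 arrays each). The first genotype carries a ligand-dependent Cre and loxP-flanked alleles of Rptor, which encodes Raptor, the scaffold of the growth-controlling kinase complex mTORC1, and is called Rptor below. The promoter that drives CreER, the induction of Cre and the presence of CreER in WT mice are not given in the sources used here. Nor do the labels say that replicates are separate animals, so the p-values reflect a spread between samples that may be technical only.

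The proteasome degrades proteins tagged with ubiquitin. Its core is a barrel of stacked alpha and beta rings, in which 3 beta subunits, Psmb5, Psmb6 and Psmb7, cut the chain, and a regulatory cap with a ring of ATPases (Psmc genes) and non-ATPase subunits (most Psmd genes) recognises, unfolds and feeds in the substrate. Blood and immune cells also make the immunoproteasome, in which Psmb8, Psmb9 and Psmb10 take the places of Psmb5, Psmb6 and Psmb7 and yield peptides suited to MHC class I presentation, and interferon raises these subunits and the activator subunits Psme1 and Psme2. In mammalian cells mTORC1 has been tied both to the amount of proteasome, through the transcription factor Nfe2l1, and to protein degradation when growth signals fall.

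The genes for the immunosubunits Psmb8 and Psmb9 lie together on chromosome 17 within the MHC, in the order Psmb9, Tap1, Psmb8, Tap2, where Tap1 and Tap2 encode the transporter that carries peptides to MHC class I. Psmb9 and Tap1 are read in opposite directions from starts 225 bases apart, so that their promoter windows share 275 of 300 bases. Promoter stretches of Psmb9 and Psmb8, the immunosubunit genes called with genotype in CMPs and GMPs, are shown with those of the constitutive subunit Psmb5 and of the activator gene Psme1. They are from RefSeq (GRCm38.p6), 5′ to 3′ on the gene's strand. The stretches are chr17:34187331-34187580 (minus strand), chr17:34197945-34198194 (plus strand), chr14:54617996-54618095 (minus strand) and chr14:55578464-55578513 (plus strand), all ending at the base before the start except the last, which runs 20 bases past it. Capitals mark a CCAAT box in Psmb9 (read on the other strand), TTCNNNGAA, the core bound by STAT proteins, in Psmb8, TGACNNNGC, the core of the antioxidant response element bound by Nfe2l1 and Nfe2l2, in Psmb5, and, in Psme1 (other strand), the core of the interferon-stimulated response element (ISRE), searched as GAAA, any 2 bases and GAAA again.
Psmb9: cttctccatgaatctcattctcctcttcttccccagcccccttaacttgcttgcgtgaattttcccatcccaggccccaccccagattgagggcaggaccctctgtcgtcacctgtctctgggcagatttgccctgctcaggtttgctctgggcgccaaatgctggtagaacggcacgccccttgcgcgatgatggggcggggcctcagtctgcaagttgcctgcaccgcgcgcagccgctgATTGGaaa
Psmb8: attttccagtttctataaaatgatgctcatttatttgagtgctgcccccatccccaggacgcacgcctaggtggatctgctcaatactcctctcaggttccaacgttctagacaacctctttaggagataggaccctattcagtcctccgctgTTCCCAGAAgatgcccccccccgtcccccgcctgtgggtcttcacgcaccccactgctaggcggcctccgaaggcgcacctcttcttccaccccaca
Psmb5: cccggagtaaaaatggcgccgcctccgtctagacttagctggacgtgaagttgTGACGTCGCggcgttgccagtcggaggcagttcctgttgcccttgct
Psme1: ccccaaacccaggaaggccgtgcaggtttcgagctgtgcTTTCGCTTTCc

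Both strands of the 300-base windows (250 bases before and 50 after the start) of all genes were searched for these 4 motifs. Of the 47 proteasome genes 39 had a window, and for 6 of these, Psmb6 among them (33 bases), it is placed on a start inside the gene's outer RefSeq start. The 39 genes have 42 windows, and a gene counts once if any of its windows matches. The background is counted by window, so the shares below are in unlike units. The ISRE core occurred in 5 of the 39 (Psmb3, Psmd4, Psmd9, Psme1 and Psmg4), or 12.8%, against 3.44% of all 32851 windows. TTCNNNGAA occurred in 3 (Psmb8, Psmd2 and Psmg1), 7.69% against 8.3%, TGACNNNGC in 6 (Psmb5, Psmb6, Psmc6, Psmd9, Psmd12 and Psme4), 15.4% against 12.4%, and CCAAT in 14, 35.9% against 37.4%. In the printed stretches no match of 1 motif overlaps a match of another, and a match describes the letters only.

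The deposited values are log2 levels, and a level is compared between groups for 1 probe set and never between genes. Array medians lay between 4.76 and 4.91, and the lowest correlation between arrays of a group was 0.978. The spread around the group mean over all genes was wider in the M-CSF cultures (0.171 to 0.236, SD of an array's deviations) than in CMPs (0.120 to 0.155) and GMPs (0.109 to 0.168). The Rptor probe set itself, whose position relative to the deleted exons is not known here, was at 8.20, 8.37 and 8.45 in Rptor CMPs and 8.72, 8.51 and 8.68 in WT CMPs. It was at 9.25, 9.24 and 8.85 in Rptor GMPs and 9.25, 9.17 and 9.44 in WT GMPs, and at 6.92, 6.98, 7.06 and 6.83 in Rptor M-CSF cultures and 7.05, 6.95, 7.34 and 7.17 in WT M-CSF cultures. Its genotype change was -0.29, -0.17 and -0.18 in the 3 populations (adjusted p = 0.163, 0.465 and 0.305), so this probe set does not check the genotype labels. Markers of CMPs and GMPs (Kit, Cd34, Fcgr3, Mpo, Elane and Cebpa) averaged 10.09 to 10.36 on Rptor CMP arrays and 10.53 to 10.67 on WT CMP arrays, and 10.63 to 10.76 on Rptor GMP arrays and 10.80 to 10.90 on WT GMP arrays. With genotype 1 of these 6 markers rose and 4 fell in CMPs, and 0 rose and 1 fell in GMPs. Of all genes tested 6.01% rose and 5.44% fell in CMPs, and 4.37% and 7.53% in GMPs.

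A gene is called where the adjusted p of limma, over all genes tested, is under 0.05. Where arrays of 2 groups are said to be apart, they do not overlap. The share of all genes with arrays apart was not counted, so such statements describe the arrays only. The RNA of the immunosubunits Psmb9 and Psmb8 was lower in Rptor than in WT CMPs and GMPs. In M-CSF cultures no immunosubunit was called, and among them a genotype change that differed from the other populations was called for Psmb9 only. In CMPs 2 of the 3 immunosubunits fell and the third, Psmb10, did not pass the test, while 0 of the 7 constitutive beta subunits were called. In GMPs the same 2 fell and again 0 of the 7 constitutive beta subunits were called. Beside the shares of all genes called, given next, 0 of 7 is near the background. It does not show that these 7 subunits were unchanged. Over all 47 proteasome genes in CMPs, 1 rose and 2 fell, 2.13% and 4.26%, against 6.01% and 5.44% of all genes tested. In GMPs 0 rose and 6 fell, 0% and 12.8%, against 4.37% and 7.53%, and in M-CSF cultures 0 rose and 7 fell, 0% and 14.9%, against 6.82% and 5.73%. The median change of the 47 genes was -0.06, -0.09 and -0.12 in CMPs, GMPs and M-CSF cultures, beside -0.01, 0.02 and 0.01 for all genes. Leaving out 1 array moved the number of proteasome genes called to between 1 and 4 in CMPs, between 1 (without Rptor GMP replicate 2) and 10 (without Rptor GMP replicate 3) in GMPs, and between 3 and 6 in M-CSF cultures.

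**Figure D1:**
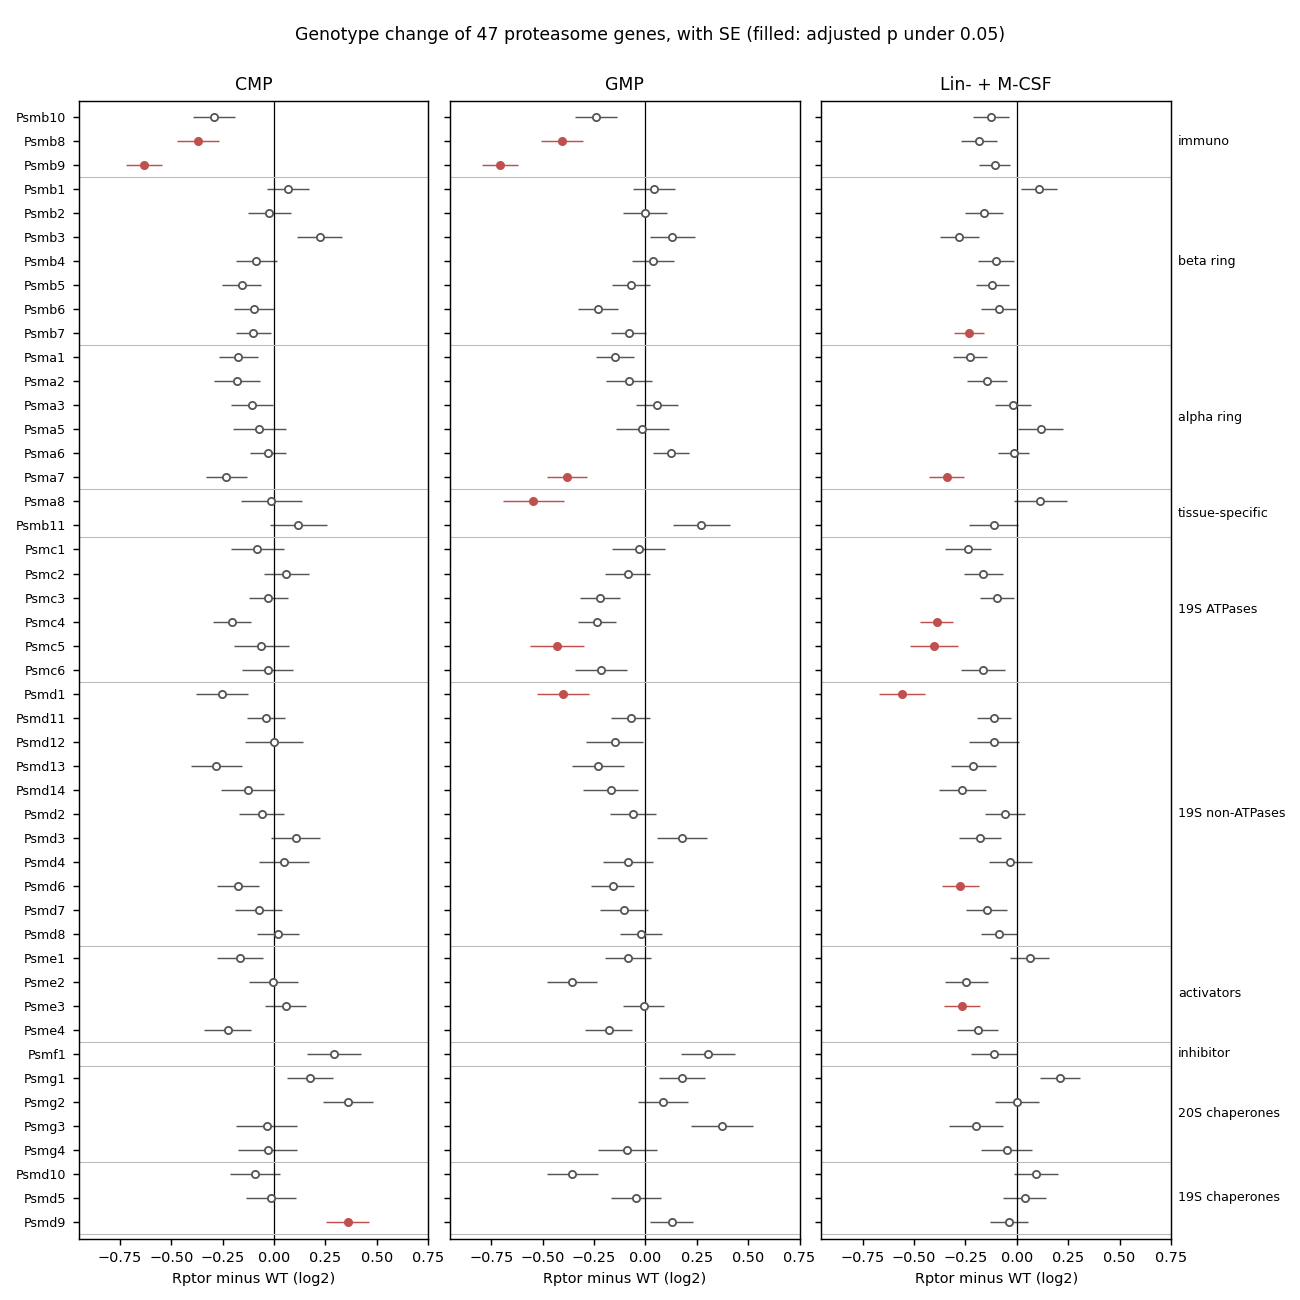
Rptor minus WT change of the 47 proteasome genes (rows, grouped by class) in CMPs, GMPs and Lin- cells with M-CSF, on the log2 scale, with bars for the limma standard error and filled points for adjusted p under 0.05. Psmb9 lies at -0.63 in CMPs and -0.71 in GMPs but at -0.11 in M-CSF cultures, where Psmd1 lies lowest at -0.56.

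Psmb9, the immunosubunit that replaces Psmb6, had levels of 10.01, 10.00 and 10.06 in Rptor CMPs, against 10.68, 10.56 and 10.73 in WT CMPs. No Rptor array reached the level of a WT array, and the change was -0.63 ± 0.09 (SE, adjusted p = 2.82e-05), or 0.645 of the WT level. In Rptor GMPs its levels were 9.84, 9.94 and 9.96, against 10.54, 10.62 and 10.70 in WT GMPs, a change of -0.71 ± 0.09 (SE, adjusted p = 7.43e-06), or 0.612 of the WT level. Again every Rptor array was below every WT array. In Rptor M-CSF cultures Psmb9 was at 10.89, 10.83, 10.79 and 10.74, against 10.95, 10.99, 10.84 and 10.91 in WT cultures, and the groups overlapped (change -0.11 ± 0.08 (SE, adjusted p = 0.41)). The genotype change in M-CSF cultures minus that in CMPs was 0.53 ± 0.12 (SE, adjusted p = 0.00549), and minus that in GMPs 0.60 ± 0.12 (SE, adjusted p = 0.00319). The changes in GMPs and CMPs differed by -0.08 ± 0.12 (SE, adjusted p = 0.876). These 4 Psmb9 calls (CMP, GMP and the differences of M-CSF cultures from each) held under every alternative tried, each array left out in turn included.

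Psmb8, which replaces Psmb5, was at 9.05, 9.09 and 9.25 in Rptor CMPs and 9.60, 9.42 and 9.46 in WT CMPs. The arrays did not overlap, and Psmb8 fell by a log2 change of -0.37 ± 0.10 (SE, adjusted p = 0.02). Its call in CMPs was lost without Rptor CMP replicate 1, Rptor CMP replicate 2 or WT CMP replicate 1 (-0.33, -0.35 and -0.31, adjusted p = 0.0897, 0.0812 and 0.108) and with arrays centred on their median (-0.34, adjusted p = 0.0566). In Rptor GMPs it was at 9.10, 8.999 and 9.17, against 9.51, 9.50 and 9.48 in WT GMPs, a change of -0.40 ± 0.10 (SE, adjusted p = 0.0112) that was lost without Rptor GMP replicate 2 (-0.36, adjusted p = 0.0638). In Rptor M-CSF cultures it was at 9.27, 9.14, 9.35 and 9.02, against 9.37, 9.50, 9.38 and 9.26 in WT cultures. These groups overlapped (change -0.18 ± 0.09 (SE, adjusted p = 0.193)), but the genotype changes of Psmb8 were not shown to differ between M-CSF cultures and CMPs (difference 0.18 ± 0.14 (SE, adjusted p = 0.532)) or GMPs (difference 0.22 ± 0.14 (SE, adjusted p = 0.434)).

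Psmb10, which replaces Psmb7 and lies outside the MHC, was at 10.04, 10.03 and 10.31 in Rptor CMPs and 10.45, 10.43 and 10.37 in WT CMPs. All Rptor arrays lay below all WT arrays, with a change of -0.29 ± 0.10 (SE, adjusted p = 0.0701) that missed the threshold. It was called without Rptor CMP replicate 3, the highest of its group (-0.38, adjusted p = 0.0217). In Rptor GMPs it was at 10.23, 10.26 and 10.18, against 10.42, 10.44 and 10.52 in WT GMPs, a change of -0.24 ± 0.10 (SE, adjusted p = 0.147). In Rptor M-CSF cultures it was at 10.26, 10.28, 10.28 and 10.06, against 10.48, 10.39, 10.19 and 10.32 in WT cultures (change -0.13 ± 0.09 (SE, adjusted p = 0.397)), and there the arrays overlapped.

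**Figure D2:**
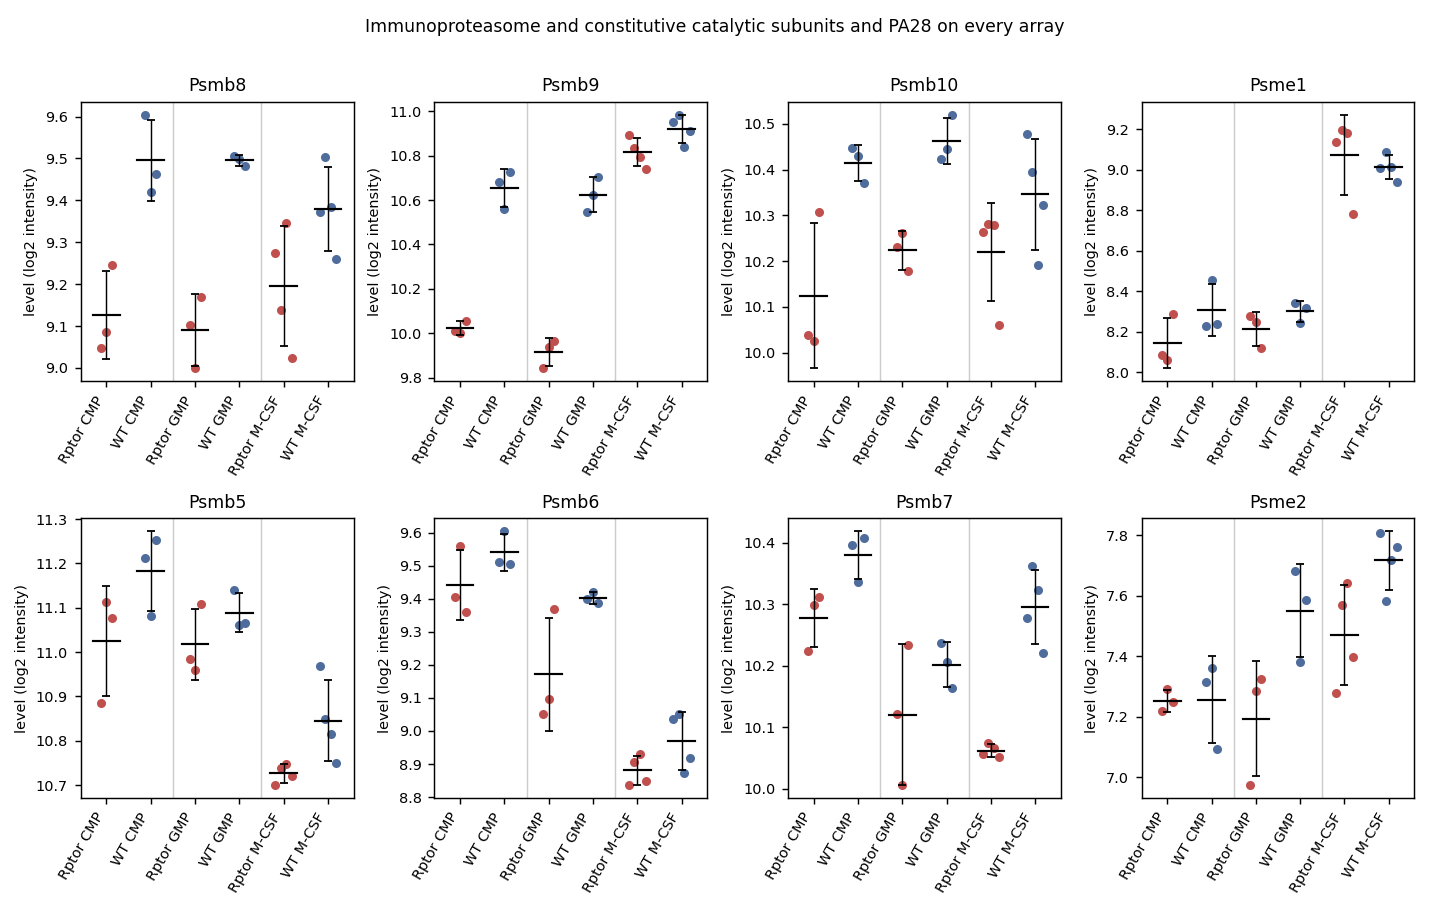
Log2 level of the immunosubunits Psmb8, Psmb9 and Psmb10, the constitutive subunits Psmb5, Psmb6 and Psmb7 and the activator subunits Psme1 and Psme2 on every array (points; Rptor red, WT blue), with the group mean and SD as lines and bars and an own axis for each gene that does not start at 0. The 3 Rptor CMP and 3 Rptor GMP arrays are below all WT arrays of the same population for the 3 immunosubunits. So are the Rptor arrays for Psmb7 in CMPs, Psmb6 and Psme2 in GMPs, and Psmb5 and Psmb7 in M-CSF cultures. The share of all genes with arrays apart in this way was not counted. Psme1 is higher in both M-CSF groups than in the other 4.

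The constitutive counterparts of these subunits were called with genotype in neither CMPs nor GMPs. All Rptor arrays lay below all WT arrays for Psmb7 in CMPs, Psmb6 in GMPs, and Psmb5 and Psmb7 in M-CSF cultures. How many of all genes do so was not counted. Psmb5 was at 10.88, 11.11 and 11.08 in Rptor CMPs, against 11.21, 11.08 and 11.25 in WT CMPs, at 10.98, 10.96 and 11.11 in Rptor GMPs, against 11.14, 11.06 and 11.07 in WT GMPs, and at 10.70, 10.74, 10.75 and 10.72 in Rptor M-CSF cultures, against 10.97, 10.85, 10.81 and 10.75 in WT cultures. Psmb6 was at 9.41, 9.56 and 9.36 in Rptor CMPs, against 9.51, 9.61 and 9.51 in WT CMPs, at 9.05, 9.10 and 9.37 in Rptor GMPs, against 9.40, 9.42 and 9.39 in WT GMPs, and at 8.84, 8.91, 8.93 and 8.85 in Rptor M-CSF cultures, against 9.04, 9.05, 8.87 and 8.92 in WT cultures. Neither gene was called in any population, although Psmb6 was called lower in GMPs without Rptor GMP replicate 3 (-0.33, adjusted p = 0.0302) and with array weights (-0.32, adjusted p = 0.000831). Psmb7 was at 10.22, 10.30 and 10.31 in Rptor CMPs, against 10.40, 10.34 and 10.41 in WT CMPs, and at 10.12, 10.01 and 10.23 in Rptor GMPs, against 10.24, 10.21 and 10.16 in WT GMPs, and was called in neither. It fell in M-CSF cultures, at 10.06, 10.07, 10.07 and 10.05 in Rptor cultures against 10.28, 10.36, 10.32 and 10.22 in WT cultures. The change there, -0.23 ± 0.07 (SE, adjusted p = 0.0416), lost its call when any array but WT M-CSF replicate 4 was left out (adjusted p = 0.0596 to 0.0951).

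The 3 pairs were also compared as a difference within each array, immunosubunit minus counterpart, which mixes the response of 2 probe sets and is read only between genotypes. For Psmb9 minus Psmb6 the mean was 0.58 ± 0.13 in Rptor CMPs and 1.11 ± 0.14 in WT CMPs, and 0.74 ± 0.13 in Rptor GMPs and 1.22 ± 0.09 in WT GMPs (SD, n = 3 each), with exact permutation p = 0.1 in both, the smallest that 3 against 3 arrays allow. In M-CSF cultures it was 1.93 ± 0.08 in Rptor and 1.95 ± 0.03 in WT cultures (SD, n = 4 each; exact permutation p = 0.714). For Psmb8 minus Psmb5 the genotypes differed by -0.21 in CMPs, -0.33 in GMPs and -0.07 in M-CSF cultures, with exact permutation p = 0.1, 0.1 and 0.486. For Psmb10 minus Psmb7 they differed by -0.19, -0.16 and 0.11, with exact permutation p = 0.2, 0.3 and 0.286. Each test was two-sided, and over the 9 tests the adjusted p ran from 0.225 to 0.714.

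**Figure D3:**
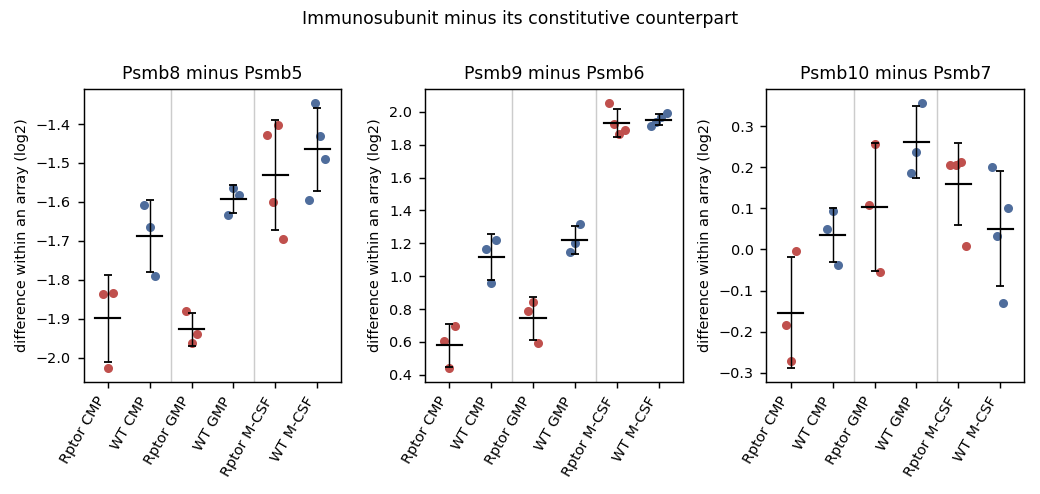
Difference in log2 level within each array between an immunosubunit and the constitutive subunit it replaces (points; Rptor red, WT blue; lines and bars are mean and SD). For Psmb9 minus Psmb6 the Rptor CMP and GMP arrays lie below their WT arrays, while the M-CSF groups overlap near 1.93 and 1.95.

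Other genes around the immunoproteasome were read from lists. Of 12 genes of MHC class I antigen processing, 10 were tested, and 0 rose and 1 fell in CMPs, 0 rose and 2 fell in GMPs, and 1 rose and 0 fell in M-CSF cultures. Of all genes tested 6.01% rose and 5.44% fell in CMPs, 4.37% and 7.53% in GMPs, and 6.82% and 5.73% in M-CSF cultures, so a single call among 10 genes is near that background. Tap2, the neighbour of Psmb8, changed by -0.58 ± 0.13 (SE, adjusted p = 0.00321) in CMPs and -0.55 ± 0.13 (SE, adjusted p = 0.00538) in GMPs. In M-CSF cultures it rose, by 0.42 ± 0.11 (SE, adjusted p = 0.0154), and its genotype change there differed from that in CMPs by 1.00 ± 0.17 (SE, adjusted p = 0.000491) and from that in GMPs by 0.97 ± 0.17 (SE, adjusted p = 0.00122). Tap1, whose start faces that of Psmb9, changed by -0.18 (adjusted p = 0.515), -0.17 (adjusted p = 0.498) and 0.03 (adjusted p = 0.918) and was not called. B2m, the light chain of MHC class I, fell in GMPs, by a log2 change of -0.26 (adjusted p = 0.0482).

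Of 12 interferon response factors, 11 were tested, and 0 rose and 4 fell in CMPs, 1 rose and 4 fell in GMPs, and 0 rose and 3 fell in M-CSF cultures. Of all genes 6.01%, 4.37% and 6.82% rose and 5.44%, 7.53% and 5.73% fell in these populations. Irf8, a monocyte and dendritic cell factor that binds interferon-stimulated elements with partners, fell in all 3, with changes of -1.88 (adjusted p = 2.67e-07) in CMPs, -2.76 (adjusted p = 1.19e-09) in GMPs and -0.54 (adjusted p = 0.0249) in M-CSF cultures. Stat2, a transducer of type I interferon signals, also fell in all 3, with -0.40 (adjusted p = 0.0276), -0.40 (adjusted p = 0.0259) and -0.35 (adjusted p = 0.0251). Irf1, which drives immunosubunit genes in response to interferon gamma, fell in CMPs (-0.48 (adjusted p = 0.015)), with -0.32 (adjusted p = 0.121) in GMPs and -0.27 (adjusted p = 0.124) in M-CSF cultures. Irf9, the DNA-binding partner of Stat2, fell in GMPs (-0.57 (adjusted p = 0.00342)). Of the receptors, Ifnar2 fell in CMPs (-0.30 (adjusted p = 0.0418)), and Ifngr2 fell in GMPs (-0.42 (adjusted p = 0.0137)) and M-CSF cultures (-0.41 (adjusted p = 0.00604)), while Ifngr1 rose in GMPs (0.40 (adjusted p = 0.0279)).

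Cell type markers moved with the genotype as well. Of 6 monocyte markers (Csf1r, Ly6c2, Fn1, Ms4a6c, Ccr2 and Irf8, which is also among the interferon factors), 5 fell in each population. Their mean log2 level on an array was 8.20 to 8.40 in Rptor CMPs and 9.65 to 9.76 in WT CMPs, 8.56 to 8.75 in Rptor GMPs and 10.20 to 10.22 in WT GMPs, and 8.63 to 8.87 in Rptor M-CSF cultures and 10.26 to 10.44 in WT cultures. Of 6 neutrophil markers 5 fell in CMPs and 3 fell and 1 rose in GMPs, with 7.94 to 8.14 in Rptor CMPs, 9.91 to 10.24 in WT CMPs, 8.78 to 9.11 in Rptor GMPs and 9.93 to 10.30 in WT GMPs. In M-CSF cultures 0 neutrophil markers were called, with 11.27 to 11.45 in Rptor and 10.98 to 11.87 in WT cultures. Of 5 tested erythroid markers 4 rose in CMPs, 3 in GMPs and 4 in M-CSF cultures, and of 5 tested dendritic markers 4 rose in CMPs, 2 in GMPs and 0 in M-CSF cultures. Of 3 eosinophil markers 2 fell in CMPs, 3 in GMPs and 1 in M-CSF cultures. Of 4 T and NK cell markers 0 rose and 1 fell in CMPs, 0 were called in GMPs, and 2 rose and 0 fell in M-CSF cultures. Of 3 tested megakaryocyte markers 0 were called in CMPs, 1 rose in GMPs and 2 rose in M-CSF cultures, and of 3 tested B cell markers 1 fell in CMPs, 1 in GMPs and 0 in M-CSF cultures. Beside these counts, 6.01% of all genes rose and 5.44% fell in CMPs, 4.37% and 7.53% in GMPs, and 6.82% and 5.73% in M-CSF cultures. A single call among 3 or 4 markers says little against that background. The part of these markers' cells in the immunosubunit result was not tested. In bulk RNA, fewer cells of a type and less RNA per cell cannot be told apart.

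Of the alpha ring, which gates the core, Psma7 was the only tested subunit called with genotype. Of 6 alpha subunits 0 were called in CMPs, with changes from -0.23 to -0.03. In Rptor GMPs Psma7 was at 10.65, 10.58 and 10.90, against 11.05, 11.18 and 11.03 in WT GMPs. The groups did not overlap, although Rptor GMP replicate 3 was nearer to WT, and the change of -0.38 ± 0.10 (SE, adjusted p = 0.0135) was lost without Rptor GMP replicate 1, Rptor GMP replicate 2 or WT GMP replicate 2 (adjusted p = 0.0632, 0.0887 and 0.0816). In Rptor M-CSF cultures Psma7 was at 10.94, 10.99, 10.76 and 10.82, against 11.30, 11.18, 11.24 and 11.15 in WT cultures, and fell again (-0.34 ± 0.09 (SE, adjusted p = 0.0115)), a call that held without any 1 array and was lost where the M-CSF arrays were fitted without the other populations (adjusted p = 0.0709). In CMPs its arrays were apart in the same direction, with 10.93, 11.02 and 11.02 in Rptor and 11.29, 11.19 and 11.19 in WT, but it did not pass the test (-0.23 ± 0.10 (SE, adjusted p = 0.161)). The other alpha subunits, Psma1, Psma2, Psma3, Psma5 and Psma6, were called with genotype in no population. Psma5 had a mean level of 3.93, close to the filter at 3.86, so little can be read from it. Psma4 is not among the genes used, since its probe sets are shared with AY074887. The brighter of them, which cannot be assigned to either gene, fell in GMPs (-0.37, adjusted p = 0.0457) and was not called in CMPs (-0.18) or M-CSF cultures (-0.20).

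Of the other constitutive beta subunits, Psmb1, Psmb2, Psmb3 and Psmb4, none was called with genotype. The Psmb3 probe set had a mean level of 5.89, at percentile 58.4 of all genes, and its detection above background was not assessed. Psmb3 was at 5.41, 5.74 and 5.53 in Rptor CMPs, against 5.29, 5.51 and 5.21 in WT CMPs, and at 6.09, 6.24, 5.98 and 6.11 in Rptor M-CSF cultures, against 6.37, 6.45, 6.29 and 6.43 in WT cultures. Its changes, 0.22 (adjusted p = 0.257) and -0.28 (adjusted p = 0.0618), were not called, while their difference was (-0.50 ± 0.15 (SE, adjusted p = 0.0383)). That call held without WT M-CSF replicate 3, Rptor M-CSF replicate 2, WT CMP replicate 2 or Rptor CMP replicate 1 and was lost without any other array of these groups (adjusted p = 0.0507 to 0.142). No other proteasome gene besides Psmb9 and Psmb3 had genotype changes that differed between populations. For M-CSF cultures against CMPs the genes called higher and lower were 1 and 1 of 47, against 4.32% and 3.45% of all genes. For M-CSF cultures against GMPs they were 1 and 0 of 47, against 2.93% and 1.83%, and for GMPs against CMPs 0 and 0 of 47, against 0.667% and 1.83%. Of the tissue-specific subunits, Psmb11, made in thymic epithelium, was at a mean level of 3.96. Psma8, of the testis proteasome, was at 4.84, 4.72 and 4.54 in Rptor GMPs and 5.35, 5.23 and 5.15 in WT GMPs. It fell (-0.55 ± 0.15 (SE, adjusted p = 0.0178)), a call lost without WT GMP replicate 1 or 2 or Rptor GMP replicate 2 or 3 (adjusted p = 0.0508 to 0.0808).

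The regulatory cap gave most of the calls in M-CSF cultures. All 6 ATPases and all 11 non-ATPase subunits were lower on average in Rptor than in WT cultures, which held under each of the 3 other scalings (repeated quantile normalization, median centring and cyclic loess). Of all 16638 genes 7907 were lower on average. Of each class 2 passed the test, 33.3% of the ATPases and 18.2% of the non-ATPases, against 5.73% of all genes. Psmd1, a scaffold of the base of the cap, was at 8.44, 8.49, 8.48 and 8.18 in Rptor cultures and 8.84, 8.91, 9.11 and 8.97 in WT cultures. Its arrays were well apart, with a change of -0.56 ± 0.11 (SE, adjusted p = 0.00172), or 0.679 of the WT level. Psmc4, an ATPase, was at 9.44, 9.37, 9.32 and 9.26 in Rptor cultures and 9.76, 9.85, 9.76 and 9.58 in WT cultures, again without overlap (-0.39 ± 0.08 (SE, adjusted p = 0.0021)). The calls of Psmd1 and Psmc4 held under every alternative, all of which use single-gene probe sets only. A probe set that Psmd1 shares with Armc9, and which cannot be assigned to it, went the other way without a call. Its changes were 0.39, 0.23 and 0.29 in CMPs, GMPs and M-CSF cultures. The ATPase Psmc5 was at 9.78, 9.56, 9.41 and 9.75 in Rptor cultures and 10.09, 9.98, 10.08 and 9.97 in WT cultures. It fell (-0.40 ± 0.12 (SE, adjusted p = 0.0249)), a call lost without WT M-CSF replicate 1 or 3 or Rptor M-CSF replicate 2 or 3 (adjusted p = 0.0550 to 0.0848). Psmd6, a non-ATPase subunit, fell (-0.28 ± 0.09 (SE, adjusted p = 0.0485)), but not once any 1 array was left out (adjusted p = 0.0623 to 0.125).

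In GMPs the same classes spread widely among the Rptor arrays. The median of the 6 ATPases, each centred on its mean over the 20 arrays, was -0.33, -0.51 and -0.07 on the 3 Rptor GMP arrays and -0.12, -0.05 and -0.28 on the WT GMP arrays. For the 11 non-ATPases it was -0.08, -0.30 and 0.13 in Rptor GMPs and 0.11, 0.29 and 0.12 in WT GMPs. Rptor GMP replicate 3 was thus the highest of its group in both classes. Psmc5 was at 8.86, 8.70 and 9.26 in Rptor GMPs and 9.45, 9.50 and 9.15 in WT GMPs. The arrays overlapped, and the change of -0.43 ± 0.13 (SE, adjusted p = 0.0386) was lost without replicate 1 or 2 of either genotype (adjusted p = 0.138 to 0.232). Psmd1 was at 8.74, 8.47 and 9.05 in Rptor GMPs and 9.16, 9.25 and 9.05 in WT GMPs (-0.40 ± 0.13 (SE, adjusted p = 0.0443)). It was lost without any array except Rptor GMP replicate 3 (adjusted p = 0.0533 to 0.288). Fitted with array weights, which give arrays that depart from their group less say, 20 proteasome genes were called in GMPs in place of 6, 3 of them higher and 17 lower. The share of all genes called with array weights was not counted, so this rise is not read as particular to the proteasome genes. In CMPs no ATPase or non-ATPase subunit was called, and their changes ran from -0.20 to 0.06 and from -0.28 to 0.11. Psmd1 was at 9.25, 9.09 and 9.02 in Rptor CMPs and 9.45, 9.33 and 9.34 in WT CMPs (-0.25 ± 0.13 (SE, adjusted p = 0.262)), and Psmc4 at 9.80, 9.86 and 9.84 in Rptor CMPs and 10.10, 9.93 and 10.08 in WT CMPs (-0.20 ± 0.09 (SE, adjusted p = 0.186)), apart in both cases but not past the threshold.

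**Figure D4:**
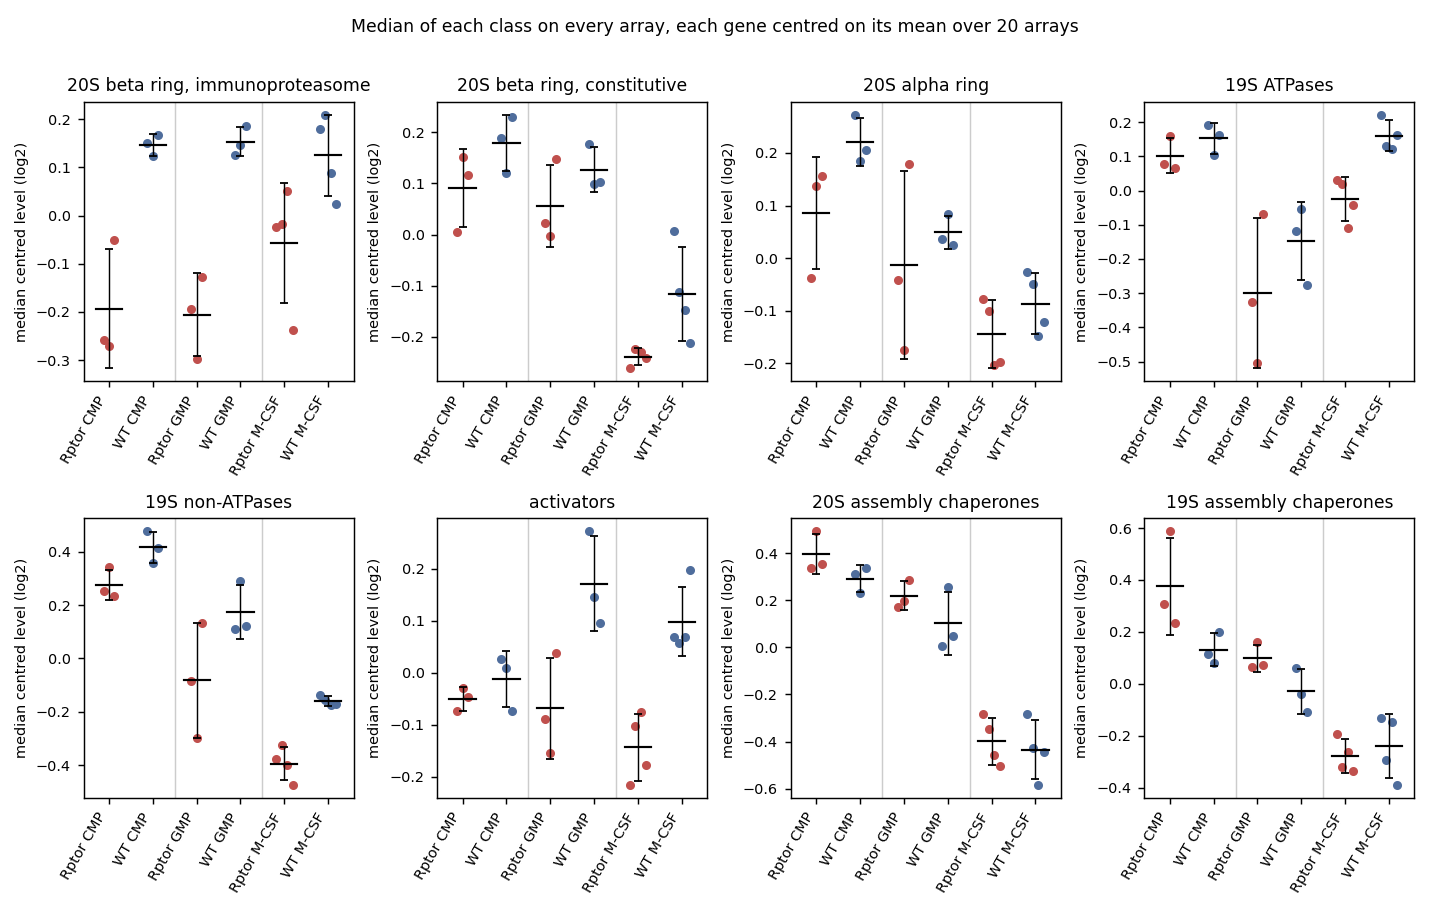
Median over the genes of a class of the log2 level centred on each gene's mean over the 20 arrays, for each array (points; Rptor red, WT blue; lines and bars are mean and SD). The immunoproteasome panel separates Rptor from WT in CMPs and GMPs. Rptor also lies below WT for the alpha ring and 19S non-ATPases in CMPs and the activators in GMPs. In M-CSF cultures it does so for the constitutive beta ring, 19S ATPases, 19S non-ATPases and activators. The medians of both chaperone classes lie higher in Rptor than WT CMPs, and that of the 19S chaperones also in GMPs. By gene, 2 of the 3 19S chaperones had negative changes in CMPs, and 2 of 3 again in GMPs. Of the 4 20S chaperones 2 had negative changes in CMPs. The 19S ATPase panel spreads over the Rptor GMP arrays from -0.51 to -0.07, and the assembly chaperones are lowest in the M-CSF groups of both genotypes.

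The activators open the core without ATP. Psme1 and Psme2 form the ring that interferon raises. Psme1 was at 8.09, 8.06 and 8.29 in Rptor CMPs, against 8.23, 8.46 and 8.24 in WT CMPs, at 8.28, 8.25 and 8.12 in Rptor GMPs, against 8.34, 8.24 and 8.32 in WT GMPs, and at 9.14, 9.20, 9.18 and 8.78 in Rptor M-CSF cultures, against 9.01, 9.09, 9.01 and 8.94 in WT cultures. It was called with genotype in no population. Psme2 was at 7.22, 7.29 and 7.25 in Rptor CMPs, against 7.31, 7.36 and 7.09 in WT CMPs, at 6.97, 7.28 and 7.32 in Rptor GMPs, against 7.68, 7.38 and 7.59 in WT GMPs, and at 7.28, 7.57, 7.64 and 7.40 in Rptor M-CSF cultures, against 7.81, 7.58, 7.72 and 7.76 in WT cultures. In GMPs its arrays were apart, with a change of -0.36 ± 0.12 (SE, adjusted p = 0.0598) that missed the threshold. A probe set that Psme2 shares with 9930111J21Rik1 and 9930111J21Rik2, and which therefore cannot be assigned to it, fell in all 3 populations (-0.77, -0.66 and -0.59). Psme3, which forms a nuclear activator, was at 7.88, 7.84, 7.79 and 7.65 in Rptor M-CSF cultures and 8.07, 8.13, 8.16 and 7.85 in WT cultures. The groups overlapped, and the fall of -0.27 ± 0.09 (SE, adjusted p = 0.0498) was lost when any array but WT M-CSF replicate 4 was left out (adjusted p = 0.0542 to 0.131). Psme4, a large nuclear activator, and Psmf1, a protein that inhibits the core in vitro, were not called with genotype.

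The chaperones that build the core and the cap gave 1 call with genotype. Psmd9, a chaperone of the ATPase ring, was at 7.14, 7.52 and 7.30 in Rptor CMPs and 6.94, 6.91 and 7.03 in WT CMPs. It rose by 0.36 ± 0.10 (SE, adjusted p = 0.0268), but not without Rptor CMP replicate 2 or 3 or WT CMP replicate 1 or 2 (0.26 to 0.37, adjusted p = 0.0529 to 0.195). The core chaperone Psmg2 had a change of the same size in CMPs (0.36 ± 0.12 (SE, adjusted p = 0.0607)) that missed the threshold, and its second probe set changed by 0.15. Psmg1, Psmg3 and Psmg4, the other core chaperones, and Psmd5 and Psmd10, of the cap, were called with genotype in no population. Of the 2 genes that only share the spelling, Psmc3ip fell in GMPs (-0.56 ± 0.14 (SE, adjusted p = 0.00971)) and Psme3ip1 was not called with genotype.

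A list of 32 partners and regulators of the proteasome had 25 tested genes, of which 2 rose and 0 fell in CMPs, 1 rose and 3 fell in GMPs, and 2 rose and 1 fell in M-CSF cultures. These counts are near the background of all genes (6.01% and 5.44%, 4.37% and 7.53%, and 6.82% and 5.73% higher and lower), and the genes below are given as values of a list and not as a shift of it. Pomp, the maturation factor needed to complete the core, fell in GMPs (-0.55 (adjusted p = 0.00655)) and M-CSF cultures (-0.39 (adjusted p = 0.0243)), with -0.27 (adjusted p = 0.219) in CMPs. Nfe2l1, the factor that raises proteasome genes when degradation is blocked, was not called (-0.09, 0.02 and -0.25 in CMPs, GMPs and M-CSF cultures). Ngly1, the glycanase that activates Nfe2l1, rose in CMPs (0.53 (adjusted p = 0.0218)), as did the related factor Nfe2l2 (0.36 (adjusted p = 0.0176)). In GMPs Bach1, a repressor at antioxidant elements, rose (0.53 (adjusted p = 0.0118)), and Uba6, a ubiquitin-activating enzyme (-0.50 (adjusted p = 0.0164)), and Vcp, the segregase that unfolds ubiquitinated proteins (-0.35 (adjusted p = 0.0321)), fell. In M-CSF cultures Mafk, a small Maf partner of the Nfe2 factors, rose (0.40 (adjusted p = 0.0183)), and so did Ecpas, which joins the cap to the core (0.24 (adjusted p = 0.0464)).

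Among WT cells, GMPs differed from CMPs in 1 proteasome gene that was higher and 6 that were lower, 2.13% and 12.8%, against 6.65% and 4.35% of all genes. The immunosubunits were level, with changes between -0.03 and 0.05. Psmb3, a non-catalytic beta subunit, was at 5.95, 5.65 and 5.76 in WT GMPs and 5.29, 5.51 and 5.21 in WT CMPs (0.45 ± 0.11 (SE, adjusted p = 0.0117)). It was lost without WT GMP replicate 1 or WT CMP replicate 1 or 3 (adjusted p = 0.0502 to 0.0776). Psmd7, a subunit of the lid of the cap, was at 10.11, 10.22 and 9.94 in WT GMPs and 10.61, 10.57 and 10.74 in WT CMPs (-0.55 ± 0.12 (SE, adjusted p = 0.00361)), the call that held under every alternative. Psmd6 was at 9.73, 9.88 and 9.63 in WT GMPs and 10.20, 10.10 and 10.17 in WT CMPs (-0.41 ± 0.10 (SE, adjusted p = 0.0131)). It was lost without WT GMP replicate 3 or WT CMP replicate 1 (adjusted p = 0.0923 and 0.0552).

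The other falls in GMPs were less steady. Psma3 was at 10.85, 10.93 and 10.73 in WT GMPs and 11.27, 11.16 and 11.15 in WT CMPs (-0.36 ± 0.10 (SE, adjusted p = 0.0286)). Psmc5 was at 9.45, 9.50 and 9.15 in WT GMPs and 9.82, 9.70 and 9.88 in WT CMPs (-0.43 ± 0.13 (SE, adjusted p = 0.0399)), and Psmc6 at 9.53, 9.61 and 9.20 in WT GMPs and 9.91, 9.80 and 9.85 in WT CMPs (-0.41 ± 0.13 (SE, adjusted p = 0.0406)). Psma1 passed narrowly (-0.29 ± 0.09 (SE, adjusted p = 0.04999)). All 4 lost their call without any of WT GMP replicates 1 and 3 and the 3 WT CMP arrays (adjusted p = 0.0559 to 0.279).

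WT Lin- cells cultured with M-CSF differed from WT CMPs in 30 of the 47 genes and from WT GMPs in 25. Population and culture cannot be told apart in either comparison. The change of all genes had a median of -0.14 in both, so values are best read against that shift. Against CMPs 5 proteasome genes were higher and 25 lower, 10.6% and 53.2%, against 19.6% and 36% of all genes. After repeated quantile normalization, and after median centring, 8 were higher and 23 lower. After cyclic loess, which brings the median of all genes close to 0, 15 were higher and 13 lower. The counts by direction thus depend on the scaling. For the other scalings, here and against GMPs, the share of all genes called was not counted. The median change of the 47 genes against CMPs was -0.28 beside -0.14 for all genes in the deposited values. After cyclic loess it was -0.02 beside -0.005. Against GMPs 9 were higher and 16 lower, 19.1% and 34.0%, against 20.3% and 36.1% of all genes, and after cyclic loess 16 were higher and 10 lower. Repeated quantile normalization gave 11 higher and 15 lower there, and median centring 9 and 16. Under every alternative 15 of the 30 genes and 17 of the 25 stayed called in the same direction.

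**Figure D5:**
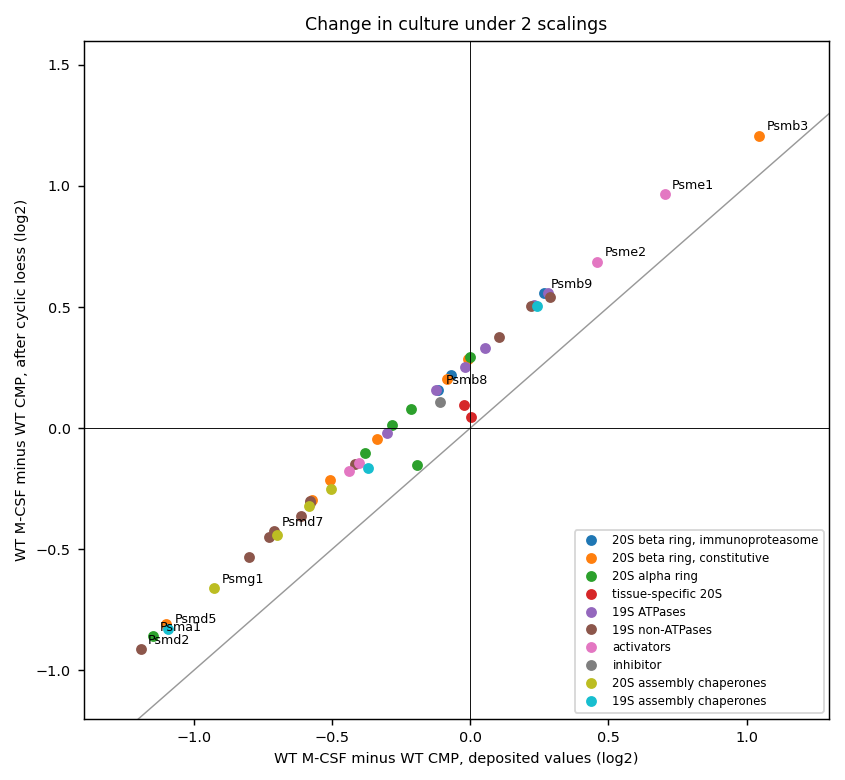
WT M-CSF cultures minus WT CMPs for the 47 proteasome genes, in log2 units, from the deposited values (x axis) and after cyclic loess (y axis), coloured by class, with the line of equal values. Most genes sit above the line, so genes with small falls on the x axis are near or above 0 on the y axis, while Psmb3, Psme1 and Psme2 are above 0 and Psmd2, Psma1 and Psmd5 below 0 on both.

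Psme1, Psme2 and Psmb9 were higher in culture than in CMPs, while Psmb8 and Psmb10, which interferon also raises, were not. Psme1 was at 9.01, 9.09, 9.01 and 8.94 in WT cultures, 8.34, 8.24 and 8.32 in WT GMPs and 8.23, 8.46 and 8.24 in WT CMPs, 0.70 ± 0.10 (SE, adjusted p = 7.33e-06) against CMPs. Psme2, at 7.81, 7.58, 7.72 and 7.76 in WT cultures, 7.68, 7.38 and 7.59 in WT GMPs and 7.31, 7.36 and 7.09 in WT CMPs, rose against CMPs (0.46 ± 0.11 (SE, adjusted p = 0.00155)). Psmb9 rose as well, with 0.27 ± 0.08 (SE, adjusted p = 0.00895) against CMPs, a call lost without WT CMP replicate 2 (0.22, adjusted p = 0.0560), and 0.30 ± 0.08 (SE, adjusted p = 0.00394) against GMPs. Psmb8 and Psmb10 were not called, with -0.12 (adjusted p = 0.319) and -0.07 (adjusted p = 0.56) against CMPs. Psmb3 was at 6.37, 6.45, 6.29 and 6.43 in WT cultures, against the values above in GMPs and CMPs, 1.05 ± 0.10 (SE, adjusted p = 2.75e-08) against CMPs and 0.60 ± 0.10 (SE, adjusted p = 4.27e-05) against GMPs. Of the interferon factors 8 of 11 rose and 1 fell against CMPs, where 19.6% of all genes rose and 36% fell. Irf2 (2.12 (adjusted p = 3.42e-11)) and Irf1 (1.45 (adjusted p = 1.72e-09)) were among those that rose. Of the 10 tested genes of MHC class I antigen processing 2 rose and 5 fell, Tap2 among the falls (-1.21 (adjusted p = 2.31e-08)).

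Psmd2, the large scaffold of the cap beside Psmd1, was at 9.02, 9.25, 8.88 and 9.01 in WT cultures, 10.11, 10.13 and 10.10 in WT GMPs and 10.30, 10.14 and 10.26 in WT CMPs. It fell against CMPs (-1.19 ± 0.10 (SE, adjusted p = 3.66e-09)). Psma1, of the alpha ring, was at 10.03, 9.96, 9.88 and 10.02 in WT cultures, 10.80, 10.97 and 10.72 in WT GMPs and 11.19, 11.04 and 11.15 in WT CMPs (-1.15 ± 0.09 (SE, adjusted p = 5.99e-10) against CMPs). Psmb1, of the beta ring, was at 9.96, 10.05, 9.77 and 10.03 in WT cultures, 10.86, 10.90 and 10.75 in WT GMPs and 11.09, 11.03 and 11.05 in WT CMPs (-1.10 ± 0.09 (SE, adjusted p = 3.04e-09) against CMPs). These 3 were well below both uncultured groups on every array. The cap chaperone Psmd5 was at 8.27, 8.19, 8.09 and 7.99 in WT cultures, 9.20, 9.21 and 9.25 in WT GMPs and 9.31, 9.14 and 9.24 in WT CMPs (-1.10 ± 0.11 (SE, adjusted p = 4.60e-08) against CMPs), and the core chaperone Psmg1 at 8.37, 8.07, 8.08 and 7.96 in WT cultures, 8.73, 8.93 and 8.91 in WT GMPs and 9.07, 9.002 and 9.07 in WT CMPs (-0.93 ± 0.10 (SE, adjusted p = 1.63e-07) against CMPs). All 4 core chaperones fell against CMPs, with changes from -0.93 to -0.50, and stayed below 0 after cyclic loess (-0.66 to -0.25). For Psmg2 this holds by the probe set used, while its second probe set, at a mean level of 7.11, was 1.17 higher. Psmd4, a ubiquitin receptor of the cap, rose against CMPs (0.29 ± 0.11 (SE, adjusted p = 0.0372)) with overlapping arrays, a call lost without any WT CMP array or WT M-CSF replicate 2, 3 or 4 (adjusted p = 0.0539 to 0.119).

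Against GMPs, ATPases were among the genes that rose in culture. Psmc5 was at 10.09, 9.98, 10.08 and 9.97 in WT cultures and 9.45, 9.50 and 9.15 in WT GMPs (0.66 ± 0.12 (SE, adjusted p = 0.000106)), and Psmc1 at 10.00, 10.01, 9.97 and 9.95 in WT cultures and 9.27, 9.50 and 9.26 in WT GMPs (0.64 ± 0.12 (SE, adjusted p = 0.000111)). The cap chaperone Psmd10, also known as gankyrin, was at 9.02, 9.09, 8.83 and 8.85 in WT cultures and 8.34, 8.49 and 8.24 in WT GMPs (0.59 ± 0.11 (SE, adjusted p = 0.000151)). Of the 6 ATPases 3 rose and 1, Psmc4, fell against GMPs (-0.32 (adjusted p = 0.00335)), whereas after cyclic loess 5 rose and Psmc4 was at -0.04. Psmd3, of the lid, was at 8.42, 8.41, 8.56 and 8.52 in WT cultures and 9.21, 9.31 and 9.35 in WT GMPs (-0.81 ± 0.11 (SE, adjusted p = 2.46e-06)). Psmc2 was not called by the probe set used (-0.02 (adjusted p = 0.882) against CMPs), whereas its second probe set, at a mean level of 8.67, was 4.18 higher in WT cultures than in WT CMPs. For Psmc2 and Psmg2 the culture comparison therefore depends on the probe set.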

How the data were processed

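Total RNA (1 to 5 ng) of sorted cells was made into biotinylated cDNA with NuGEN kits, per the labels' protocols. The deposited values are log2 levels per probe set, and were made by the authors with tools that the submitters' processing notes list as RMA, Partek 6.6 and limma, with no role or order. RMA quantile-normalizes arrays, which hides any change that most transcripts share. No depth applies to arrays, and the number of arrays limits the precision.

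The members and lists were chosen with earlier results of these data known. The platform annotation gave 23521 of the 41345 probe sets 1 gene symbol and 1814 several, and 16010 were unnamed here; 23328 of the single-gene ones matched a RefSeq gene (GRCm38.p6), and 0 symbols changed. The brightest probe set stood for its gene, and genes averaging at least the 25th percentile of single-gene probe sets were tested. All arrays entered 1 limma fit (limma 3.58.1 under R 4.3.3, eBayes without trend) with a mean per group and 14 residual degrees of freedom, for 9 comparisons: genotype in each population, the WT populations against each other, and the 3 differences between genotype changes. P-values were adjusted by Benjamini-Hochberg over 16638 genes. Genes are named by class, with values on every array for the catalytic subunits, Psme1, Psme2 and up to 5 called genes per direction and comparison, and up to 4 genes per list. In simulated data, with 200 of 16638 genes changed, a change of 0.5 (log2) was called for 35.0% of them in CMPs, 19.5% in GMPs and 53.0% in M-CSF cultures, and a change of 1 for 93.5%, 94.5% and 95.0%. Each share is from 1 random draw, with 1 spread per gene for all groups. The shares of CMPs and GMPs, both 3 against 3 arrays, therefore do not show a difference in sensitivity. Fewer genes were changed than were called in the data, which alters the threshold of the adjusted p. Figures were drawn with matplotlib in Python. Replicate numbers were not used as pairs. The correlation of same-numbered deviations was -0.34 to 0.12 between genotypes and -0.11 to 0.18 between populations of 1 genotype. In no comparison did every pair exceed 0.1. Between GMPs and CMPs all were positive, 0.05 to 0.18 in Rptor and 0.005 to 0.09 in WT. Differently numbered samples were not compared there, so whether same-numbered samples share animals is not known.

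Alternatives tried were leaving out the filter or setting it at the 50th percentile, probe sets averaged per gene, each comparison's populations alone, replicate as a block, array weights, trended and robust eBayes, repeated quantile normalization, median centring, cyclic loess and each array left out.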

Additional observations from a re-analysis of the deposited data

Results flagged for a closer look

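The genotype change of Psmb9 differed between populations by the interaction test of limma, by 0.53 between M-CSF cultures and CMPs and by 0.60 between M-CSF cultures and GMPs. That of Psmb3 differed by -0.50 between M-CSF cultures and CMPs.

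In the groups of 4 arrays, single arrays stood apart from the others by Dixon's test in 7 of 100 groups checked, and chance flags about 1 in 20. Rptor M-CSF replicate 4 was the lowest of its group for Psmb10 (10.06), Psmd1 (8.18), Psme1 (8.78) and the difference of Psmb10 minus Psmb7 (0.0092). Rptor M-CSF replicate 2 was the highest of its group for Psmc3 (9.54). Among WT cultures, replicate 4 was the lowest for Psmb2 (10.27) and replicate 1 the highest for Psmc6 (9.97).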

How the results depend on the processing

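Of the 16 genotype calls in single populations, those of Psmb9 in CMPs and GMPs and of Psmd1 and Psmc4 in M-CSF cultures held in every alternative. No alternative used probe sets shared by several genes, and the one shared by Psmd1 and Armc9 went the other way without a call. Psmb9 ranged from -0.68 to -0.60 in CMPs, from -0.75 to -0.64 in GMPs, and its differences of M-CSF cultures from CMPs and GMPs from 0.49 to 0.57 and from 0.52 to 0.64. The share of all genes called was not counted under any alternative, so the counts that follow show only how the calls move. With array weights the numbers of proteasome genes called were 9 in CMPs, 20 in GMPs, 3 in M-CSF cultures and 20 for WT GMPs against WT CMPs. Array weights also gave 4 genotype changes that differed between GMPs and CMPs and 4 between M-CSF cultures and GMPs. With the 50th percentile filter 5 were called in CMPs and 2 genotype changes differed between M-CSF cultures and GMPs, as 2 did with cyclic loess. Trended and robust eBayes called 5 in CMPs and 1 difference between M-CSF cultures and CMPs. With only the populations compared in the fit, which leaves fewer residual degrees of freedom, 2 were called in M-CSF cultures and 1 differed between M-CSF cultures and CMPs. Median centring gave 4 in M-CSF cultures and 4 between WT GMPs and WT CMPs. With replicate number as a block (replicate block), 3 were called for WT GMPs against WT CMPs and 1 genotype change differed between M-CSF cultures and CMPs. Whether the numbers pair samples is not known. Leaving out each array in turn gave 1 to 4 calls in CMPs, 1 to 10 in GMPs, 3 to 6 in M-CSF cultures, 1 to 8 between WT GMPs and WT CMPs, 27 to 31 and 23 to 26 between WT M-CSF cultures and WT CMPs or GMPs, and 0 to 0, 1 to 3 and 1 to 2 for the differences of GMPs from CMPs and of M-CSF cultures from CMPs and GMPs. The comparisons of the catalytic pairs in CMPs and GMPs cannot pass 0.05 at 3 against 3 arrays, so their p-values say nothing of stability. Directions turned between WT M-CSF cultures and WT CMPs for Psmg2 with the mean of its probe sets (0.24) and with cyclic loess for Psma3 (0.011), Psma6 (0.077) and Psmb7 (0.20), and between WT M-CSF cultures and WT GMPs for Psmg2 with the mean of its probe sets (0.38) and Psmb5 with cyclic loess (0.037). Where not given by the construction of the alternative, the cause was not tested. Detection above background was not assessed, which limits Psma5, Psmb11 and other dim probe sets.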
